A study of Rattus norvegicus with 10 samples.

Results

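Bone morphogenetic protein (BMP) genes and the genes that report or restrain BMP signalling were followed after knockdown of Bnip3, a mitophagy receptor gene, in cells of the rat nucleus pulposus, which is the soft centre of each spinal disc. The 10 genes were chosen by name, with earlier results of these data known. They were the ligands Bmp2, Bmp4 and Bmp6 and the secreted antagonists Grem1 and Nog. The others were the target genes Id1, Id2 and Id3 and the inhibitory SMADs Smad6 and Smad7. All 10 had a probeset of their own, out of 15037 named genes and 23188 probesets tested on the array, and no member shared its values with another probeset. Male Sprague Dawley rats of 300 g, aged 3 to 4 months, were the source of the cells. In 5 samples the cells carried a lentivirus with a control hairpin in pLKO.1 (ShCtrl, arrays 1 to 5), and in 5 a lentivirus with a hairpin against Bnip3 (ShBNIP3, arrays 6 to 10), and RNA was collected 4 days after transduction. Both groups were therefore transduced cultures, and no untransduced cells were analysed here. No label ties a sample to its own culture or rat, so the spread behind each p-value is that between these 10 samples and may be technical.

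BMPs are secreted dimers that bind pairs of type I and type II receptor kinases, which phosphorylate SMAD1, SMAD5 and SMAD9. These join SMAD4 in the nucleus and switch on target genes, among which the ID genes are the usual readout. ID proteins have a helix-loop-helix domain but no DNA-binding region, and they hold E proteins such as TCF3, TCF4 and TCF12 in pairs that cannot bind DNA. The pathway limits itself through secreted antagonists that trap the ligands and through SMAD6 and SMAD7, which block the receptors. In disc and cartilage, BMPs are known for promoting matrix synthesis and, in bone-forming settings, mineralisation.

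The start regions of 1 ligand gene, Bmp4, and the 3 ID genes are shown as those of a signal and its readout. No start region was available for Bmp2 or Smad6. Each line gives the 250 bases upstream of the annotated start, 5′ to 3′ on the gene's own strand, from RefSeq on build GRCr8, in which 8 of the 10 members had an entry. Capitals mark matches, on either strand, to 4 motifs: TATAAA (the TATA box), CCAAT (the CCAAT box), GGGCGG (the GC box) and GGCGCC (a sequence that BMP-activated SMADs can bind).
Bmp4 (chr15:22101934-22102183, minus strand): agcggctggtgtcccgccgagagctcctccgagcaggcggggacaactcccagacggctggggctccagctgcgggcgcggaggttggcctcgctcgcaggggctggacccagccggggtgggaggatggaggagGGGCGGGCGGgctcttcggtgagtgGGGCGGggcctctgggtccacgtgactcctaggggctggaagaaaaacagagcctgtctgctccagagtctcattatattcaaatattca
Id1 (chr3:161671314-161671563, plus strand): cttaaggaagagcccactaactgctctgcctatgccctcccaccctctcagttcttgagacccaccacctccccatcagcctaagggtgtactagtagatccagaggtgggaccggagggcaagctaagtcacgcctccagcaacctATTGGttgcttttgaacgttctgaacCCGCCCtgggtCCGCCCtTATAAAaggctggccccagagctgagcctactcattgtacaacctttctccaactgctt
Id2 (chr6:47470996-47471245, minus strand): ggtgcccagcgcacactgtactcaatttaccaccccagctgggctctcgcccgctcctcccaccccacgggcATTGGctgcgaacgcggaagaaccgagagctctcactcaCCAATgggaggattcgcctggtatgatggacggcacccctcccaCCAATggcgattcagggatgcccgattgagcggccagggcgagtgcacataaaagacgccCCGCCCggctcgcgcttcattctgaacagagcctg
Id3 (chr5:153656041-153656290, plus strand): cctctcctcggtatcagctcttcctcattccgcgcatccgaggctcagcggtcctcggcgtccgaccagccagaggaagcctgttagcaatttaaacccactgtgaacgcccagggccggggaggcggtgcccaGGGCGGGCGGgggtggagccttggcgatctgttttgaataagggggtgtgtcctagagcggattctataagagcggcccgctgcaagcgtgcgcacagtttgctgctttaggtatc
The regions of Id1, Id2 and Id3 had no GGCGCC match in this window, nor had that of Bmp4, and 8.69% of 33469 rat promoters of the same length had one. Among the members not printed, Grem1 held it at -91 and Nog at -51. All 4 regions held the GC box, which 30.5% of promoters had: 3 matches in Bmp4, at -115, -111 and -90 from the start, and 2 in Id3, at -116 and -112, with the first 2 of Bmp4 and both of Id3 overlapping. Id1 held 2 GC boxes, at -77 and -66, a TATA box at -59 (12.9% of promoters) and a CCAAT match at -103 (34% of promoters). Id2 held 3 CCAAT matches, at -178, -139 and -95, and 1 GC box at -35. These matches are descriptions of sequence, and no measurement of binding was analysed here.

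Expression is given in log2 units on the authors' normalized scale, so a difference of 1 is a 2-fold change, and levels of different genes cannot be ranked on this array. Bnip3 itself was 14.61 ± 0.79 over the ShCtrl arrays and 11.39 ± 0.77 over the ShBNIP3 arrays (SD, n = 5 each), a difference of -3.21 (SE 0.40, exact two-sided permutation p = 0.0079) with no overlap. Array medians lay between 6.18 and 6.22. A probeset was taken as at background on an array where it lay under a limit set by the antigenomic control probesets, their 95th percentile, which was between 6.50 and 6.78. ShCtrl array 4 and ShBNIP3 array 10 stood apart from the other 8 arrays, with limma array weights of 0.38 and 0.50 against 1.08 to 1.46 (1 is the typical array). Over the brighter 50% of probesets, the deviations of the arrays from their group means also paired ShCtrl arrays 1 and 2 with ShBNIP3 arrays 6 and 7, ShCtrl arrays 3 and 5 with ShBNIP3 arrays 8 and 9, and ShCtrl array 4 with ShBNIP3 array 10. These array sets were drawn from the data and are named in no label (correlations of 0.23 to 0.64 between arrays of different groups in the same set, and -0.43 to 0.28 in different sets). Within-set differences are given below as values with no test. For some genes a fit with the sets as a block is also given, whose p-values may be too small.

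Of the 10 genes, Bmp2 and Bmp4 rose and Id2 fell (limma, Benjamini-Hochberg adjusted p under 0.05 over all probesets), and 7 did not pass. Over all probesets 15.5% passed, 7.61% as higher and 7.87% as lower, against 30% of the 10 genes. The 10 genes were chosen with earlier results of these data known, so these shares are descriptions and no test of enrichment. The median log2 difference was 0.07 over the 10 genes and 0.02 over all probesets. The groups did not overlap for Bmp2 and Id2, Bmp2 being higher, as for 6.6% of all probesets, and Id2 lower, as for 6.29% (12.9% in all). Of the 3 ID genes, the readout of the pathway, 1 fell and 2 did not pass, and of the 3 ligands 2 rose. At an unadjusted p under 0.05, limma gave 4 of the 10 genes, with Smad6 added as lower, against 26.7% of all probesets.

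**Figure D1:**
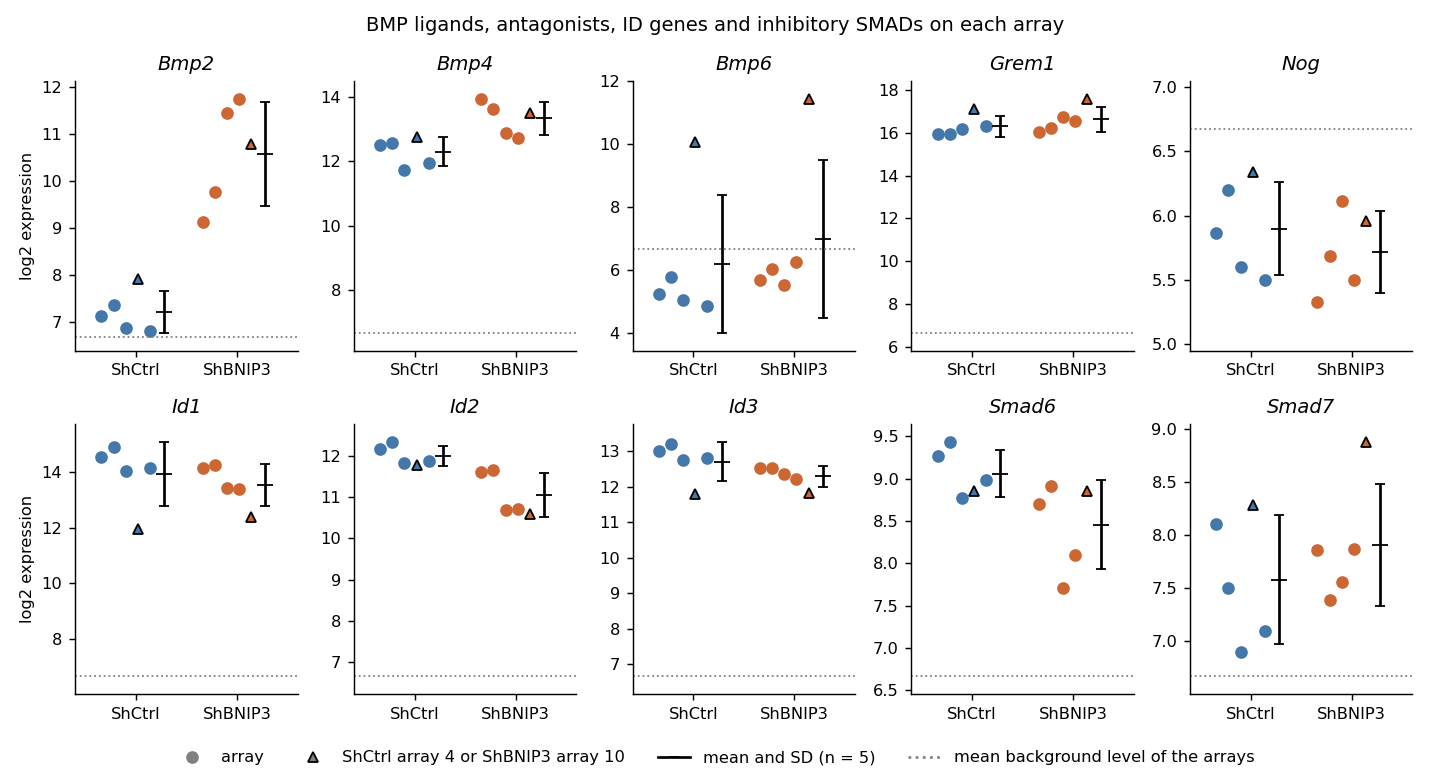
Log2 expression of the 10 genes on each array (vertical axis, log2 units, scaled per gene) for ShCtrl (blue) and ShBNIP3 (orange), with the mean and SD of 5 arrays in black, triangles for ShCtrl array 4 and ShBNIP3 array 10, and the mean background level as a dotted line. Bmp2 lies at 9.12 or more on every ShBNIP3 array and at 7.91 or less on every ShCtrl array, whereas Bmp6 rises over background on the 2 triangle arrays alone.

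Bmp2 (Entrez gene 29373), a ligand that drives cartilage and bone formation, had the largest change of the 10 genes. Its log2 level was 7.12, 7.37, 6.87, 7.91 and 6.81 on ShCtrl arrays 1 to 5, and 9.12, 9.76, 11.46, 11.75 and 10.78 on ShBNIP3 arrays 6 to 10. Every ShBNIP3 array lay above every ShCtrl array, with a gap of 1.21 between the groups, and the ShCtrl arrays were 0.19 to 1.23 above their background level. The log2 rise was 3.36, with an SE of 0.44 and a limma adjusted p of 0.00025, or 10.2-fold with a 95% interval of 5.32 to 19.7. It was the 12th largest rise among the named genes. ShBNIP3 arrays 6 and 7 were the lowest of their group, and the difference was 2.20 within array set 1, 4.76 within set 2 and 2.87 within set 3.

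Bmp4 (Entrez gene 25296), the closest paralog of Bmp2, rose about 2-fold. Its level was 12.50, 12.58, 11.71, 12.75 and 11.93 on ShCtrl arrays 1 to 5 and 13.93, 13.64, 12.87, 12.73 and 13.50 on ShBNIP3 arrays 6 to 10. The groups overlapped at 1 array: ShBNIP3 array 9 was 0.03 below ShCtrl array 4. The difference was 1.04 (SE 0.26, limma adjusted p = 0.016), 2.05-fold with a 95% interval of 1.39 to 3.03. Within array sets 1, 2 and 3 it was 1.24, 0.98 and 0.75, all positive. The rise of Bmp2 exceeded that of Bmp4 by 2.32 (SE 0.73), with an exact two-sided permutation p of 0.0079, the smallest that 5 against 5 arrays can give, and 0.063 adjusted over the 8 pairs of members compared. A pair that reaches this smallest p alone is adjusted to 0.063, so the threshold of 0.05 was out of its reach. On the ShCtrl arrays Bmp2 lay 0.19 to 1.23 above background and Bmp4 5.03 to 6.08, so the 2 rises may not be measured alike. With 1 array left out the excess was 1.87 to 2.83 and the adjusted p of the exact test 0.032 to 0.25, under 0.05 in 1 of the 10 fits, that without ShBNIP3 array 10.

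Bmp6, a ligand best known for the control of iron through hepcidin, was at background on 8 of the 10 arrays. Its level was 5.26, 5.79, 5.07, 10.08 and 4.87 on ShCtrl arrays 1 to 5 and 5.70, 6.05, 5.52, 6.26 and 11.43 on ShBNIP3 arrays 6 to 10. ShCtrl array 4 and ShBNIP3 array 10 were thus 4.84 and 5.55 above the mean of the other 4 arrays of their groups, while the groups overlapped elsewhere. The difference of 0.78 (SE 1.18, limma adjusted p = 0.76) had a 95% interval from -1.78 to 3.34, which spans both directions. Within array sets 1, 2 and 3 it was 0.35, 0.92 and 1.35, all positive, and with the sets as a block the SE was 0.20 and the limma adjusted p 0.013, in a fit that called 22% of all probesets. The sets were built from the same data, so that p may be too small. Without these 2 arrays, on levels at background throughout, the difference was 0.64 (SE 0.21, limma adjusted p = 0.054). Over all probesets, 36 were above background on these 2 arrays and at background on the other 8, and 7 probesets other than Bmp6 were raised on both arrays by at least 4.84, the smaller of the deviations of Bmp6. These were Stc1, Rasl11b, Il6, Nr4a1, Klhl41, Il11 and Nr4a3, named after their values were seen.

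Of the antagonists, Grem1, which binds BMP2 and BMP4, was above background on every array and Nog, which binds the same ligands, on 0 of 10. Grem1 ranged from 15.93 to 17.13 in ShCtrl and from 16.04 to 17.57 in ShBNIP3, with ShCtrl array 4 and ShBNIP3 array 10 the highest of their groups. Its difference was 0.32 (SE 0.29, limma adjusted p = 0.55), with a 95% interval of -0.30 to 0.95. Nog ranged from 5.50 to 6.34 in ShCtrl and from 5.32 to 6.11 in ShBNIP3, so no fold is given. For the same reason the changes of Grem1 and Nog are not set against each other, although that pair is counted among the 8 in the adjustment.

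Of the ID genes, Id2 passed the test and was lower in ShBNIP3. Id2 (Entrez gene 25587) had levels of 12.16, 12.33, 11.82, 11.78 and 11.88 on ShCtrl arrays 1 to 5 and 11.61, 11.65, 10.70, 10.70 and 10.59 on ShBNIP3 arrays 6 to 10. Every ShBNIP3 array was below every ShCtrl array, by a gap of 0.13 at the nearest. The fall was 1.93-fold, a log2 difference of -0.95 (SE 0.23) with a limma adjusted p of 0.013. Within the 3 array sets the difference was -0.62, -1.15 and -1.19.

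Id1, the ID gene most often used as a BMP readout, was 14.53, 14.92, 14.04, 11.95 and 14.16 on ShCtrl arrays 1 to 5 and 14.17, 14.26, 13.43, 13.39 and 12.39 on ShBNIP3 arrays 6 to 10. ShCtrl array 4 was the lowest of all 10 arrays, at -2.46 from the mean of the other ShCtrl arrays, and ShBNIP3 array 10 was the lowest of its group, at -1.42 from the others. The difference was -0.39 (SE 0.50, limma adjusted p = 0.70) with a 95% interval of -1.47 to 0.68. Without both arrays it was -0.60 (SE 0.24, limma adjusted p = 0.11), and within the array sets it was -0.51, -0.69 and 0.44. The upper end of the interval of Id1 was a 1.61-fold rise. Whether the changes of Bmp2 and Id1 are related was not tested.

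Id3 was 13.00, 13.20, 12.76, 11.79 and 12.80 on ShCtrl arrays 1 to 5 and 12.54, 12.52, 12.37, 12.23 and 11.81 on ShBNIP3 arrays 6 to 10. ShCtrl array 4 was again the lowest of its group, at -1.15 from the mean of the other 4, and so was ShBNIP3 array 10, at -0.60. With all arrays the difference was -0.42 (SE 0.24, limma adjusted p = 0.30). Without ShCtrl array 4 it was -0.65 (limma adjusted p = 0.018), and without both arrays -0.53 (limma adjusted p = 0.018), and of the 10 fits that left out 1 array it passed in that without ShCtrl array 4 alone. With the array sets as a block the limma adjusted p was 0.027, in a fit that called 22% of all probesets. The sets were built from the same data, so that p may be too small. No pair of ID genes differed in its change at an adjusted p under 0.05: Id2 and Id3 differed by -0.53 (SE 0.24, exact permutation p = 0.056, 0.15 adjusted over 8 pairs), Id1 and Id2 by 0.55 (SE 0.47, adjusted 0.44), and Id1 and Id3 by 0.02 (SE 0.34, adjusted 0.95).

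Smad6, the inhibitory SMAD that acts mainly on BMP receptors and is itself a BMP target, was 9.27, 9.43, 8.77, 8.85 and 8.98 on ShCtrl arrays 1 to 5 and 8.70, 8.91, 7.71, 8.10 and 8.86 on ShBNIP3 arrays 6 to 10. ShBNIP3 arrays 6, 8 and 9 were below every ShCtrl array, and arrays 7 and 10 lay within the ShCtrl range. The difference was -0.60 (SE 0.23, limma adjusted p = 0.11). It passed without ShCtrl array 4 and ShBNIP3 array 10 (-0.76, limma adjusted p = 0.049), with array weights (-0.71, limma adjusted p = 0.040) and with the array sets as a block (limma adjusted p = 0.016). The block fit called 22% of all probesets, and its sets were built from the same data, so its p may be too small. Within the array sets the difference was -0.55, -0.97 and 0.0058. Smad7, which also restrains TGF-beta receptors, ranged from 6.90 to 8.29 in ShCtrl and from 7.38 to 8.87 in ShBNIP3, a difference of 0.33 (SE 0.31, limma adjusted p = 0.58). The change of Smad6 minus that of Smad7 was -0.93 (SE 0.39, exact permutation p = 0.048, 0.15 adjusted over 8 pairs).

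**Figure D2:**
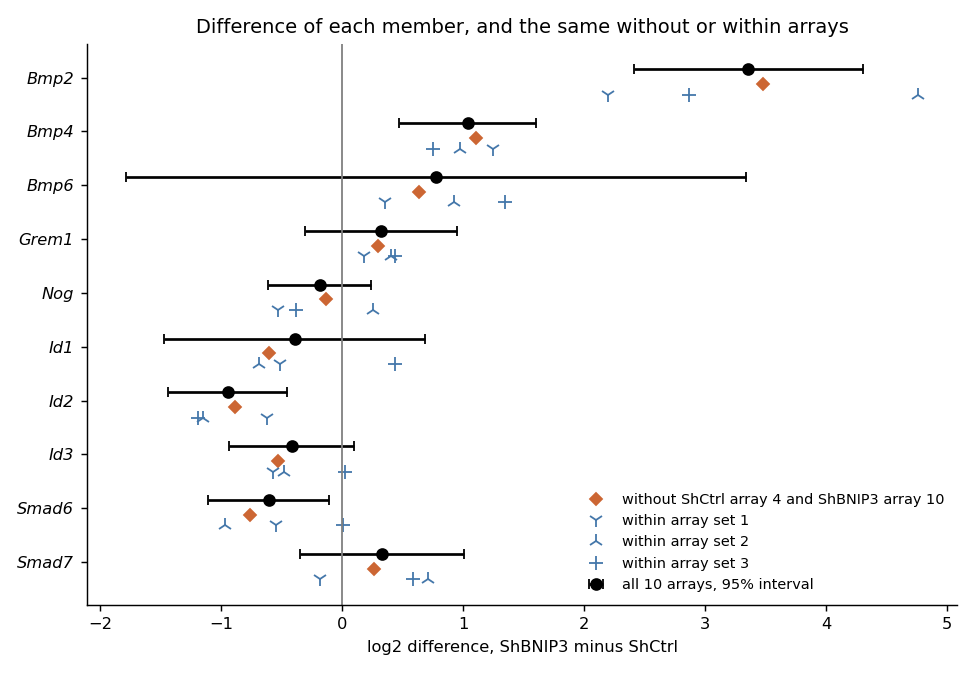
Log2 difference of each gene, ShBNIP3 minus ShCtrl (horizontal axis), with all 10 arrays and its 95% interval (black), without ShCtrl array 4 and ShBNIP3 array 10 (orange diamonds), and within each of the 3 array sets (blue marks). Bmp2, Bmp4, Bmp6, Grem1 and Id2 have one sign in the 3 sets, whereas Id1 is 0.44 in set 3 against -0.51 and -0.69 in sets 1 and 2.

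On the arrays that stood apart, some of the 10 genes were high and others low. ShCtrl array 4 and ShBNIP3 array 10 were higher than the mean of the rest of their groups for Bmp6, Grem1 (by 1.04 and 1.19) and Smad7 (by 0.89 and 1.21), and by less for Bmp2 (0.87 and 0.26), Bmp4 (0.57 and 0.21) and Nog (0.55 and 0.30, at background). They were lower for Id1 and Id3, with the values given above, and for Id2 (by -0.27 and -0.58), and they differed in sign for Smad6 (-0.26 and 0.50). Bnip3 was itself 1.71 and 1.61 above the other arrays of its group on these 2 arrays, and their part in the members' values was not tested. With both arrays left out, Bmp2 and Bmp4 rose and Id2, Id3 and Smad6 fell. In that fit 19.9% of all probesets were called, 9.84% as higher and 10.1% as lower.

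**Figure D3:**
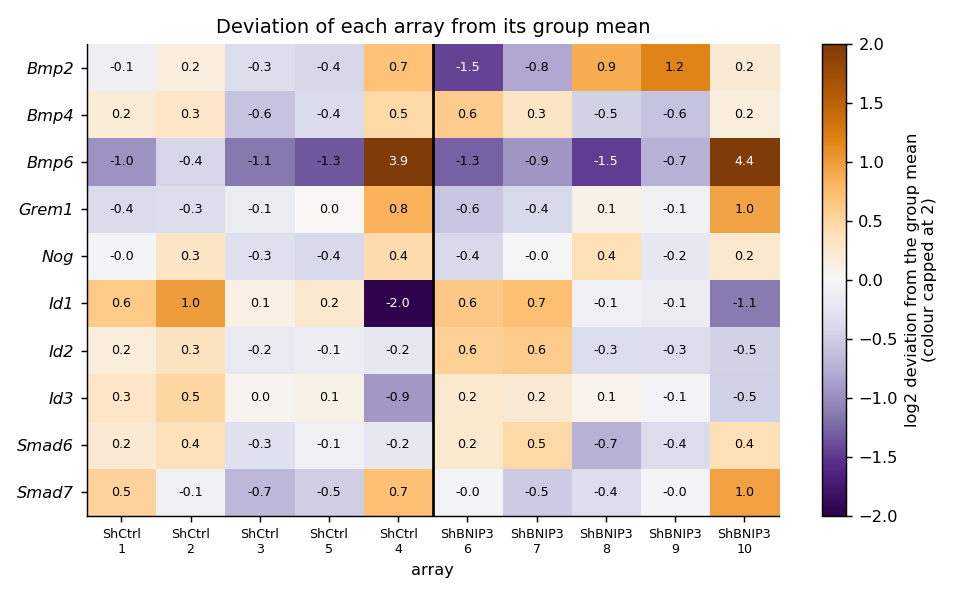
Deviation of each array (columns, with ShCtrl array 4 set last in its group) from the mean of its group for the 10 genes (rows), in log2 units, with the colour capped at 2 and the value printed in each cell. On ShCtrl array 4 and ShBNIP3 array 10 the 3 ligands, Grem1, Nog and Smad7 lie above the group mean and the 3 ID genes below it.

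The profiles most like those of 3 members were found among 7485 named genes above background on every array of at least 1 group, by the root mean square distance between levels over the 10 arrays, each gene scaled to mean 0 and SD 1. For Bmp2 the nearest were Orm1 (distance 0.15), Slc43a2 (0.17), Fbxl14 (0.19), Ccl7 (0.21) and Rnf20 (0.22). For Id1 the nearest was Atoh8 (0.23), a BMP target on the list below, with ShCtrl array 4 at -2.47 and ShBNIP3 array 10 at -1.24 from the others of their groups, followed by Lrsam1 (0.24), Pcdh18 (0.25), Ermp1 (0.27) and Ptk2 (0.28). For Grem1 they were Lpcat2 (0.20), Msrb1 (0.21), Spsb1 (0.27), Scin (0.27) and Xdh (0.29).

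The other genes of the pathway were read from 8 lists that hold 101 genes, 89 of them measured. Over these 89, which include the 10 members, 7 rose and 10 fell (19.1% called, against 15.5% of all probesets), with a median log2 difference of -0.02. The lists, too, were chosen with earlier results of these data known, so their shares are descriptions. Among the 79 that are not members, 5 rose and 9 fell.

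Of 13 measured BMP and GDF ligands, 2 rose, the members Bmp2 and Bmp4, and 1 fell, with a median of 0.24. The fall was Bmp3, an antagonistic ligand of bone, at -1.01 (SE 0.32, limma adjusted p = 0.049). It was above background on 2 of 5 ShCtrl arrays and 0 of 5 ShBNIP3 arrays, and it missed the threshold in 8 of the 10 fits that left out 1 array, with an adjusted p of up to 0.12. Limma gave 3 ligands as higher and 3 as lower at an unadjusted p under 0.05. Without both arrays that stood apart, 3 rose and 2 fell, adding Gdf6 and Gdf10, named after their values were seen. Gdf6, above background on 1 of 5 ShBNIP3 arrays alone, differed by 1.24 (limma adjusted p = 0.054) and by 1.60 without both (0.010). Gdf10, at background throughout, differed by -0.91 (limma adjusted p = 0.066) and -1.14 (0.0087).

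Of 10 measured receptors and co-receptors, 0 rose and 0 fell in limma, with a median of -0.05, and at an unadjusted p under 0.05 1 was higher and 2 were lower. In the fits that changed the method or left out both arrays that stood apart, up to 1 rose and up to 2 fell. The type I receptor genes Bmpr1a and Acvr1 differed by -0.14 (SE 0.17) and -0.13 (SE 0.18), and the type II receptor gene Bmpr2 by 0.04 (SE 0.15). Their 95% intervals lay between -0.52 and 0.36. Bmpr1b, a type I receptor gene named after its values were seen, had a difference of -1.27 (SE 0.44, limma adjusted p = 0.077). With both arrays that stood apart left out it was -1.60 (limma adjusted p = 1.4e-05). The co-receptor gene Rgma, likewise named afterwards, was 0.58 higher with an adjusted p of 0.056 in limma, and 0.019 without both arrays.

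Among 16 measured secreted antagonists and modulators, which include Grem1 and Nog, 0 rose and 2 fell (limma, with 1 higher and 4 lower at an unadjusted p under 0.05). Chrdl1, a chordin-like protein, was 2.18-fold lower (log2 -1.13, SE 0.24, limma adjusted p = 0.0061) and Nbl1 (DAN) 1.54-fold (limma adjusted p = 0.011). Without both arrays that stood apart, 1 rose and 3 fell, with Crim1 added as higher and Chrdl2 as lower, both named after their values were seen. Chrdl2, above background on 1 of 5 ShBNIP3 arrays, differed by -1.58 with all arrays (limma adjusted p = 0.080) and -1.76 without both (limma adjusted p = 0.0027). Crim1 differed by 0.55 (limma adjusted p = 0.34) and 0.67 (limma adjusted p = 0.020). Fst differed by -0.03 (SE 0.41), and by 0.29 without both arrays that stood apart, and Chrd was at background throughout. Of the 6 proteases that process BMPs or their antagonists, the proprotein convertase Furin rose 2.01-fold (limma adjusted p = 0.010) and the related Pcsk6 fell 2.75-fold (limma adjusted p = 0.00015), with Pcsk6 above background on 1 of 5 ShBNIP3 arrays.

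No SMAD mediator passed the test. Smad1, Smad5 and Smad4, which carry the signal, differed by 0.01 (SE 0.16), -0.12 (SE 0.15) and -0.08 (SE 0.12). Of 13 genes of the list, which include Smad6 and Smad7, 0 rose and 2 fell: the antiproliferative protein gene Tob2, 2.45-fold (limma adjusted p = 0.00052), and Smurf1, a ubiquitin ligase for SMAD1 and SMAD5, 1.76-fold (limma adjusted p = 0.015). At an unadjusted p under 0.05, limma gave 0 as higher and 3 as lower, with Smad6 added. Without both arrays that stood apart, 0 rose and 3 fell, again with Smad6 added. The decoy receptor gene Bambi differed by -0.55 (SE 0.26, limma adjusted p = 0.21).

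Of 20 targets of BMP signalling, 6 of them members, 0 rose and 3 fell, with a median of -0.07. The 3 are 15% of the list, where 7.87% of all probesets fell and 7.61% rose (15.5% in all). At an unadjusted p under 0.05, limma gave 0 as higher and 4 as lower, with Smad6 added. Id4, the remaining ID gene, fell 2.06-fold, from 9.24 ± 0.29 to 8.20 ± 0.35 (SD, n = 5 each; log2 -1.04, SE 0.19, limma adjusted p = 0.0022), with no overlap between groups. Hey2, which also responds to Notch, fell 1.71-fold (limma adjusted p = 0.012), with 3 of 5 ShBNIP3 arrays above background. Runx2, the osteoblast transcription factor, differed by 0.30 (SE 0.40, limma adjusted p = 0.71), and 9 of the 20 targets were at background on every array. Without ShCtrl array 4 and ShBNIP3 array 10, 5 targets fell and 0 rose, where 10.1% of all probesets fell and 9.84% rose.

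Among the E proteins, Tcf12 was 1.79-fold lower (log2 -0.84, SE 0.14, limma adjusted p = 0.0013), while Tcf3 and Tcf4 differed by 0.13 (SE 0.18) and 0.40 (SE 0.16, limma adjusted p = 0.12). Of 8 measured genes of this list 1 rose, Hes1, a Notch target (1.92-fold, limma adjusted p = 0.011), above background on 2 of 5 ShCtrl arrays and on every ShBNIP3 array. Of 10 osteoblast and mineralisation genes 3 rose and 0 fell (limma, with 1 lower at an unadjusted p under 0.05): osteopontin (Spp1) 1.65-fold, the pyrophosphate-producing enzyme Enpp1 1.72-fold, and Phex, which lay within the background range and missed the threshold in 7 of the 10 fits that left out 1 array. Bglap, Sp7, Dmp1 and Alpl were at background on every array.

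**Figure D4:**
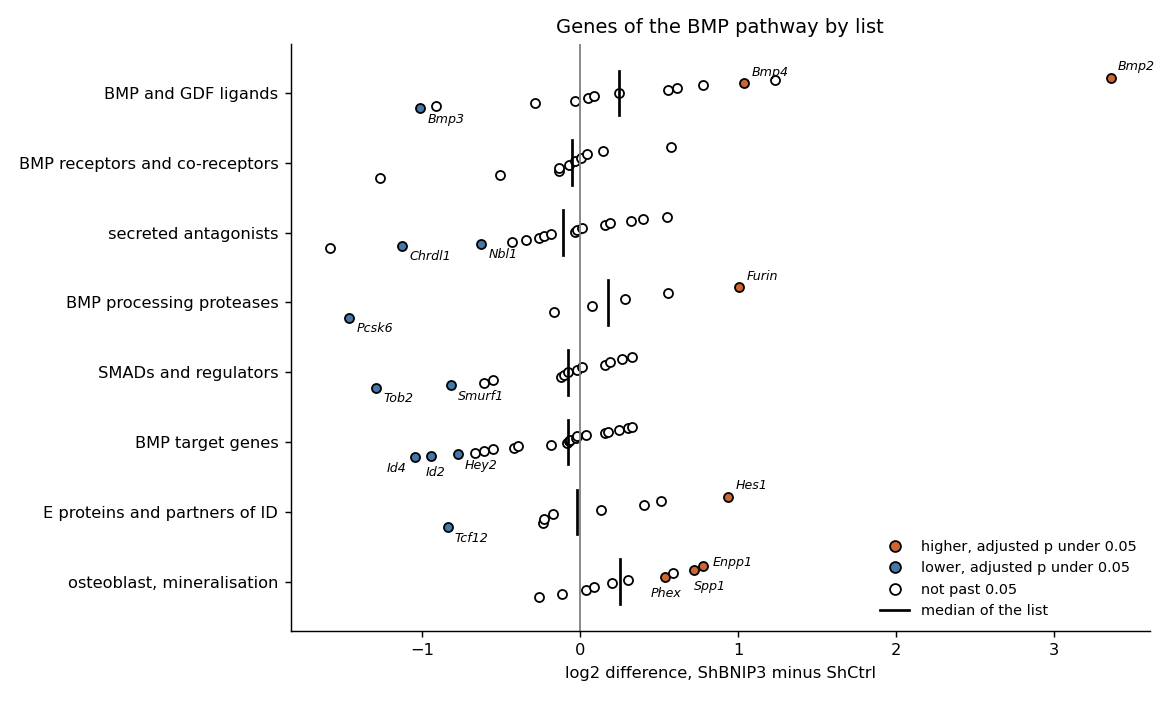
Log2 difference, ShBNIP3 minus ShCtrl (horizontal axis), of each measured gene of the 8 pathway lists (rows, a gene may be on several), filled orange or blue where the limma adjusted p was under 0.05 and open otherwise, with the list median as a black bar. Bmp2 at 3.36 stands far to the right, and the called BMP target genes Id2, Id4 and Hey2 are on the left.

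Of 11 measured nucleus pulposus markers, Acan, Col2a1, Hapln1 and Car3 were above background on every array, while the notochordal markers Tbxt, Krt8, Krt18, Krt19 and Shh, and also Comp, were at background throughout. Of these markers 1 rose, Hapln1, and 3 fell, Car3, Col2a1 and Comp, the last within the background range, and their summed log2 level was 75.4 to 77.9 in ShCtrl and 73.2 to 74.9 in ShBNIP3. Endothelial markers were at background on every array (9 of 9, with 0 called in limma and 1 at an unadjusted p under 0.05), as were 10 of 12 leukocyte markers and 5 of 6 osteoblast markers. The summed log2 level of the leukocyte list was 56.4 to 59.2 in ShCtrl and 59.0 to 62.9 in ShBNIP3, with 3 markers up, Cd14, Cd68 and Cd53, the last within the background range. That of the osteoblast list was 25.8 to 28.0 and 27.1 to 29.8. Fibroblast markers were above background on every array for 8 of 9 genes, with 1 up, 3 down and summed levels of 114.1 to 115.9 and 114.2 to 117.9. Of 8 smooth muscle and pericyte markers 2 fell, Pdgfrb and Des, and the summed level was 71.2 to 81.1 in ShCtrl and 68.7 to 71.7 in ShBNIP3. The part of other cells in the changes of Bmp2, Bmp4 and Id2 was not tested, and in a culture fewer cells of a type and less RNA per cell cannot be told apart.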

How the data were processed

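RNA of 10 samples was hybridised to 1-colour GeneChip arrays after WT Plus labelling. The deposited values are log2 expression per probeset, which the authors normalized by sst-rma, per the labels' descriptions. Software listed in the submitters' processing notes is the Transcriptome Analysis Console, whose version, like a genome build, is not given in the sources used here. Extraction text in the labels also describes mouse tissue, which was not used. Groups came from sample titles, whose numbers are not shared between groups.

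The table held 24834 probesets, and 1646 controls were left out. Of the other 23188, 15049 carried 1 symbol of the platform annotation, and all 15049 matched the RefSeq table of GRCr8. A gene with several probesets was taken at the brightest. Differences, ShBNIP3 minus ShCtrl, were tested in R 4.3.3 by limma 3.58.1 (lmFit, eBayes) on every probeset at once, and p-values were adjusted by Benjamini-Hochberg with a threshold of 0.05. Pairs of members were compared with exact two-sided permutation tests over 252 splits. The code was tested on simulated data. For arrays, their number limits the precision.

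Named genes were the members, Bnip3, up to 4 called genes of each pathway list with the largest change, a fixed set of pathway genes and the nearest profiles. Members and lists were chosen with earlier results of these data known. Alternatives changed the variance model, normalization, centring, filters, array weights and arrays, and a block for array sets was added after seeing the data.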

Additional observations from a re-analysis of the deposited data

Results flagged for a closer look

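In 74 groups of 5 arrays, 2 for each of 37 named genes, 8 held an array that lay far from the other 4, by Dixon's criterion at 95%, and chance flags about 5% of groups. All 8 were ShCtrl array 4 (5 times) or ShBNIP3 array 10 (3 times).

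Among the members this was Bmp6, at 10.08 on ShCtrl array 4 against 4.87 to 5.79 on the other ShCtrl arrays, and at 11.43 on ShBNIP3 array 10 against 5.52 to 6.26. On ShCtrl array 4, Fst was 11.59 against 9.05 to 9.67, Smurf1 10.23 against 9.08 to 9.35, Smad5 11.06 against 11.48 to 11.56, and Tob2 7.75 against 8.50 to 8.76. On ShBNIP3 array 10, Runx2 was 9.48 against 11.24 to 11.62 and Enpp1 16.87 against 17.24 to 17.37.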

How the results depend on the processing

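Bmp2, Bmp4, Id2 and Bnip3 kept their direction and passed the threshold under every alternative run, with ranges over the fits with 1 array left out of 3.06 to 3.72, 0.89 to 1.19, -1.09 to -0.83 and -3.53 to -2.87. The cause of the changes that follow was not tested. The block for array sets was built from the same data, so its p-values may be too small: with it Bmp6 (0.78, limma adjusted p = 0.013), Id3 (-0.42, 0.027) and Smad6 (-0.60, 0.016) passed. Id3 and Smad6 also passed without ShCtrl array 4 and ShBNIP3 array 10 (-0.53 and -0.76), and Smad6 with array weights (-0.71). Members that fell numbered 3 with the block, 2 with array weights, 3 without both arrays, and 1 to 2 with 1 array left out. Over all probesets, 22% were called with the block and 19.9% without both arrays, against 15.5% with all arrays and no block. Probesets that fell numbered 1432 to 2116 with 1 array left out, against 1825 with all arrays. The share with array weights is not given here, so these counts and those below are descriptions. With 1 array left out Bmp6 ranged from -0.33, without ShBNIP3 array 10, to 1.75, and Id3 from -0.65 to -0.29. Ligands that rose numbered 4 with the block, 3 without both arrays, and 2 to 3 with 1 array left out. Ligands that fell numbered 2 with the block, with array weights and without both arrays, 0 with quantile normalization, a trended and robust variance and both filters on dim probesets, and 0 to 2 with 1 array left out. Receptors that rose numbered 1 with the block, with array weights, with quantile normalization, with a trended and robust variance, with both filters and without both arrays, and 0 to 1 with 1 array left out. Receptors that fell numbered 2 with the block, 1 with array weights and without both arrays, and 0 to 1 with 1 array left out. Antagonists that rose numbered 1 with the block and without both arrays, and 0 to 1 with 1 array left out. Targets that fell numbered 6 with the block, 5 without both arrays, and 3 to 5 with 1 array left out. Genes of the E protein list that rose numbered 3 with the block and 2 without both arrays. Near 0 some signs turned, without passing: Fst was 0.22 with array weights, 0.29 without both arrays and -0.22 to 0.42 with 1 array left out, Smad1 was -0.0083 with quantile normalization, -0.033 without both arrays and -0.093 to 0.085, Bmpr2 -0.015 to 0.14 and Tcf3 -0.037 to 0.22. The change of Id1 minus that of Id3 was -0.074 without both arrays and -0.24 to 0.19, and that of Bmp4 minus that of Bmp6 -0.59 to 1.33. Each gene had a single probeset here among the members, so no other probeset could be tried.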
